A study of Homo sapiens with 4 samples.

Results

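The HOX genes described here are the 38 protein-coding genes listed for the HOXA, HOXB, HOXC and HOXD clusters, found by symbol among the 62893 Ensembl genes of the deposited count tables. There are 10 members in HOXA, 10 in HOXB, 9 in HOXC and 9 in HOXD, and all 38 were matched. The list was taken by name, without a cut on any measured value, but it was chosen with earlier results of these data known.

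HOX genes encode homeodomain transcription factors that give cells a position along the body axis. They lie in clusters in which genes at the 3′ end (low paralog numbers) act in anterior regions and genes at the 5′ end (high numbers) in posterior ones. Polycomb complexes keep silent stretches of the clusters closed, trithorax complexes keep active stretches open, and retinoic acid is a classical inducer of the 3′ genes. HOX proteins bind DNA together with PBX, MEIS and PKNOX partners of the TALE homeodomain class.

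Total RNA of the human hepatoma line Hep-G2 was sequenced after knockdown of FTO, the RNA demethylase of N6-methyladenosine. Cells labelled shFTO carried the shRNA TRCN0000246247 and the scramble control carried the shRNA SHC002, all at passage 21. Each group had 2 tables, called run 1 and run 2, with 20047409 to 20706611 gene-assigned reads. Within each group the runs agreed within sampling noise (chi-square per degree of freedom 1.019 and 1.013 in a chi-square test, p = 0.0648 and 0.142), so each group was counted as 1 sample. The comparison is therefore 1 sample with 1 sample, without a replicate check, and only 1 shRNA against FTO was used. The labels do not say whether the tables came from separate cultures, or the cells from a pool or a clone.

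FTO went from 31.4 and 28.5 CPM (reads per 1000000, with TMM, or trimmed mean of M values, scaling of library sizes) in the scramble runs to 5.42 and 5.84 CPM in the shFTO runs. All 12 hepatocyte markers examined were detected in both groups, with summed levels of 42525 and 42467 against 18551 and 18483 CPM. Of these 12, 7 were at least 2-fold lower in shFTO, against 6.67% of all genes with at least 20 reads. Of 12 fibroblast and stellate markers 6 had no read, among them DCN, LUM and COL3A1, while COL1A1 had 2 and 3 reads in scramble and 61 and 74 in shFTO. The list's sum went from 145 to 146 CPM in scramble to 212 to 218 CPM in shFTO. TAGLN, a smooth muscle actin-binding protein, was 1.94-fold higher (1.86 to 2.02), ACTA2 was at 32.5 against 34.8 CPM, and the receptor PDGFRB was 6.42-fold lower (5.42 to 7.66). The 10 endothelial markers summed to between 3.15 and 3.94 CPM in all 4 runs, with PECAM1, KDR and ERG at 0. Within that sum TIE1 went from 30 to 82 reads and ENG from 76 to 24, summed over the runs of each group. Of 6 blood cell markers PTPRC and CD3E had no read, and the sum (3006 and 3013 against 235 and 234 CPM) was nearly all LYZ. The 8 matched neural and kidney line markers summed to 28.1 to 28.9 CPM in scramble and 19.8 to 20.3 CPM in shFTO, with SYP 4.27-fold lower (3.23 to 5.72). Their part in the HOX differences was not tested.

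The promoters below were chosen, among members with a RefSeq promoter entry, for ratios far from 1 or for opposite directions within a cluster. HOXC9 and HOXC13 had no entry. They are the 250 bases before the RefSeq start, from GRCh38.p14 and 5′ to 3′ on the gene's strand, for HOXD1 (lower in shFTO; chr2:176188418-176188667, plus strand), HOXD8 (higher; chr2:176129455-176129704, plus strand), HOXA13 (higher; chr7:27200092-27200341, minus strand) and the start that RefSeq gives to both HOXC4 and HOXC5 (no scramble reads; chr12:54016638-54016887, plus strand). Capitals mark matches on either strand to the TATA box (TATAAA), the CCAAT box, the E-box and hypoxia-type core ACGTG, the GC box (GGGCGG), the CDX-type and posterior HOX-type motif TTTATGG or the HOX-PBX motif TGATTGAT.
HOXD1: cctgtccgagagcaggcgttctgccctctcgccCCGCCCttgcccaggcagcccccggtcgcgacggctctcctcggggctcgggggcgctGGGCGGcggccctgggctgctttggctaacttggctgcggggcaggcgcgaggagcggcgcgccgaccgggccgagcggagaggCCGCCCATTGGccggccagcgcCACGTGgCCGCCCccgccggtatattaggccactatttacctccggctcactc
HOXD8: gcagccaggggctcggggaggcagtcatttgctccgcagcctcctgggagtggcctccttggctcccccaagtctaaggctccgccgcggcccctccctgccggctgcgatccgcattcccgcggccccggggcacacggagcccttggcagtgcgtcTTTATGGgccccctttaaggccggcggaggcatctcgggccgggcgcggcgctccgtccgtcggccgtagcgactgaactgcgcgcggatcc
HOXA13: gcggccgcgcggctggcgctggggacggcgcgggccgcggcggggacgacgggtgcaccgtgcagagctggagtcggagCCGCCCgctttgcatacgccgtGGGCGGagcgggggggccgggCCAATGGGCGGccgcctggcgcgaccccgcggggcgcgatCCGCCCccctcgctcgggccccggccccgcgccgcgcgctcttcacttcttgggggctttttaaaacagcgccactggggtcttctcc
HOXC4 and HOXC5: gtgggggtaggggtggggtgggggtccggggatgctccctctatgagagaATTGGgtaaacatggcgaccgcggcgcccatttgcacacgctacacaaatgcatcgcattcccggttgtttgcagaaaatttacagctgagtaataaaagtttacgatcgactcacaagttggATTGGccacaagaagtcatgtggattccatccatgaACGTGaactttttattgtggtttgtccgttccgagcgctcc

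The windows of HOXD1, HOXD8 and HOXA13 were 74.8%, 72.4% and 78.0% G and C, with 31, 28 and 40 CG dinucleotides, against a median of 58.0% and 11 over 34943 windows of the same length. The shared HOXC4 and HOXC5 window had 50.8% and 14 CG dinucleotides. GGGCGG was found 4 times each in the HOXD1 and HOXA13 windows, overlapping none of its own copies, and in 42.5% of all windows. CCAAT lay in the HOXD1, HOXA13 and HOXC windows and in 32.0% of all, ACGTG in the HOXD1 and HOXC windows and in 18.5% of all, the HOXD1 pair being overlapping readings of 1 palindrome. TTTATGG was found in the HOXD8 window and in 2.30% of all. TATAAA (10.8% of all windows) and TGATTGAT (0.418%) were in none of the 4. These matches describe letters only. In GENCODE v29 an exon of the antisense gene HAGLR reaches into the HOXD1 window and an exon of HOXC6 into the HOXC window. Longer first exons of HOXD1, HOXD8 and HOXA13 also reach into their own windows. The GENCODE v29 exons of HOXC5 overlap no exon of another counted gene. Whether the HOXC5 reads come from the shared start was not tested.

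The shares of the clusters in the HOX reads differed between the groups, in large part through HOXD1. In scramble 89.2% of the reads on HOX members came from HOXD (95% exact binomial interval 88.4 to 89.9), 9.73% from HOXA (9.05 to 10.4), 1.0% from HOXC (0.784 to 1.26) and 0.0847% from HOXB (0.0311 to 0.184). In shFTO HOXA held 52.2% (50.3 to 54.2), HOXD 27.2% (25.5 to 29), HOXC 20.3% (18.8 to 21.9) and HOXB 0.192% (0.0623 to 0.447). Without HOXD1, HOXA held the most reads in both groups, 58.2% in scramble (55.4 to 61.1) and 64.0% in shFTO (61.9 to 66.0). On the same reads HOXC went from 6.0% (4.72 to 7.51) to 24.9% (23.1 to 26.8) and HOXD from 35.2% (32.5 to 38) to 10.9% (9.56 to 12.3). Intervals here and after cover counting error only. Since the RNA is from bulk cells, fewer cells that express a gene and less RNA per cell cannot be told apart.

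Summed over all 38 members the level was 186 and 185 CPM in the scramble runs and 60.4 and 59.9 CPM in the shFTO runs, 3.08-fold lower (2.95 to 3.22). That direction rests on HOXD1. Without it the other 37 members had 1183 scramble reads and 2128 shFTO reads, 1.59-fold higher in shFTO (1.48 to 1.70).

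**Figure D1:**
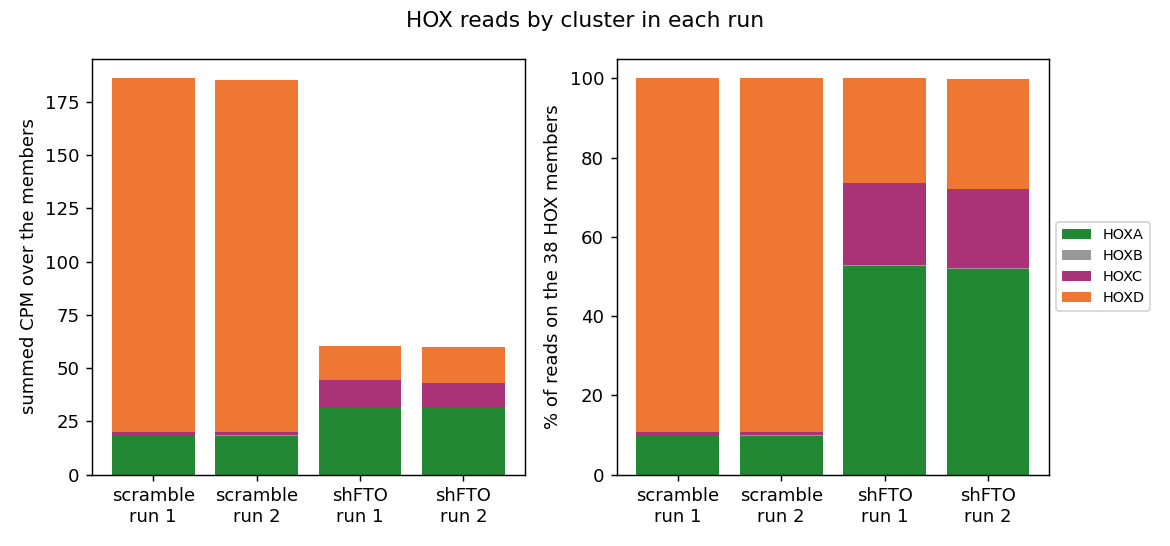
Reads on the 38 HOX members by cluster in each run, as summed CPM (left) and as percent of HOX reads (right), each bar being 1 run. The scramble bars are nearly all HOXD (89.2% of pooled reads), whereas in the shFTO bars HOXA is the largest part (52.2%) and HOXC is visible (20.3%).

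Of the 38 members 10 had no read in any run, 14 had 1 to 19 reads over the 4 runs and 14 had at least 20, the minimum for a fold here. The same 14 passed the filter of edgeR, whose quasi-likelihood test (adjusted by Benjamini-Hochberg) called 9 higher and 3 lower in shFTO, against 33.2% and 33.4% of all 13767 tested genes. As the runs of a group are 1 sample, these calls compare libraries and not conditions. At least 2-fold differences were seen in 7 members that were higher and 3 that were lower, against 6.04% and 6.67% of 14925 genes with at least 20 reads. Among genes with at least 20 but under 1000 reads, where most members lie, those shares were 11.7% and 10.4%. At 4-fold there were 6 higher and 2 lower members, against 1.63% and 1.64% of genes. Of the 14 members, 7 reached 20 reads only through the shFTO runs, and 6 of the 7 that were at least 2-fold higher are among these, so the count of higher members is in part set by the minimum. HOXC9 is the exception, with over 20 reads in scramble alone. Among the 3 lower members HOXD4 reached 20 reads only through the scramble runs, so the lower count is in part set by the minimum too.

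**Figure D2:**
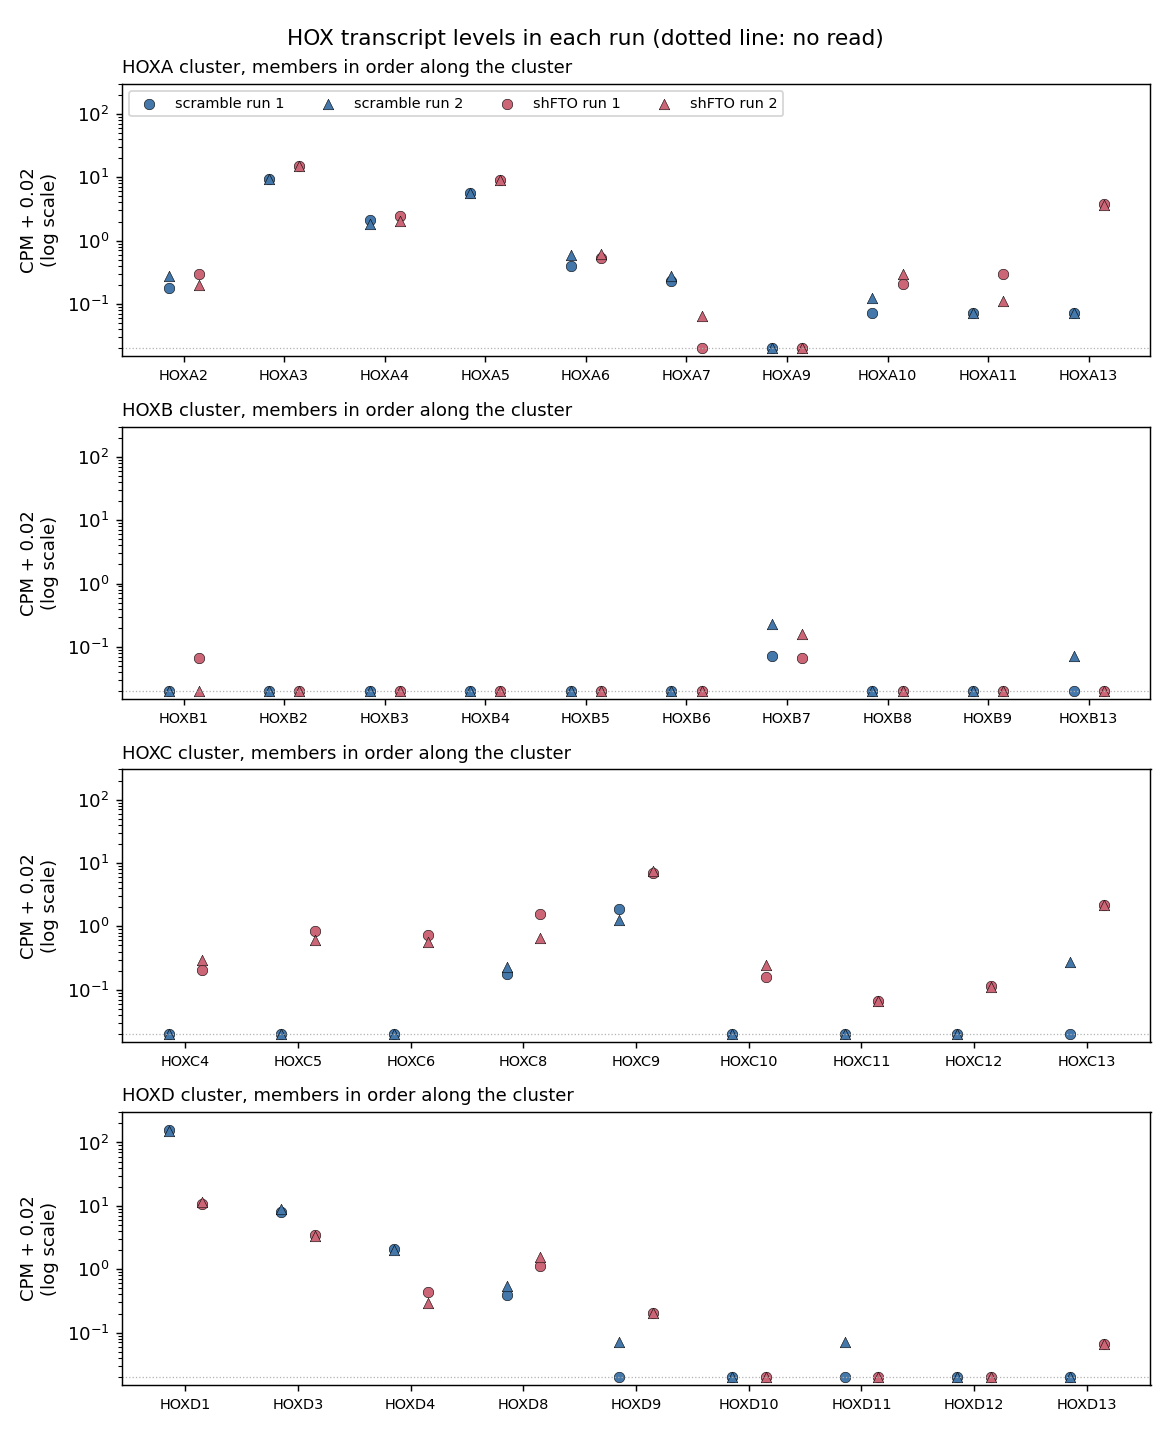
Level of each of the 38 members in each run, as CPM plus 0.02 on a log scale, in order along each cluster from the 3′ end, with circles for run 1 and triangles for run 2 and the dotted line at no read. HOXB stays at or near the dotted line in both groups, HOXC members stand higher in shFTO, and HOXD1, HOXD3 and HOXD4 stand lower.

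In the HOXD cluster on chromosome 2 the 3′ members were lower in shFTO and HOXD8 was higher. HOXD1, an anterior-class factor, was the most abundant HOX transcript of the control cells. It had 2941 and 2958 reads (156 and 153 CPM) in scramble and 230 and 249 reads (10.7 and 11.4 CPM) in shFTO. The groups were far apart, a 14.0-fold lower level in shFTO (12.7 to 15.4). Of 14925 genes 44 ranked lower, with genes without a shFTO read placed at their bound against 3 reads. HOXD3, which acts in the hindbrain and neck region, had 150 and 170 reads in scramble and 75 and 73 in shFTO, and was 2.45-fold lower (2.01 to 3.0). HOXD4 had 39 reads in each scramble run and 9 and 6 in the shFTO runs, and was 5.90-fold lower (3.37 to 11). None of these members' runs overlapped between the groups, which held for 12 of the 14 members with at least 20 reads. The share of all genes without overlap is not given here, so this does not set these members apart.

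HOXD8, a mid-cluster gene whose promoter is shown above, went the other way, with 7 and 10 reads in scramble and 24 and 34 in shFTO. It was 3.01-fold higher (1.73 to 5.51). HOXD9 had 0 and 1 read in scramble and 4 in each shFTO run. The remaining posterior genes of the cluster, the limb and genital regulators HOXD10 to HOXD13, had at most 1 read in any run. The cluster sum was 166 and 165 CPM in scramble and 16.0 and 16.7 CPM in shFTO, 10.1-fold lower (9.34 to 10.9). HOXD1 made up 93.4% of the cluster's scramble reads and 67.5% of its shFTO reads, and without it the sum was 2.05-fold lower (1.74 to 2.42).

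The noncoding genes of this cluster had ratios closer to 1 than HOXD1. HAGLR, an antisense transcript whose exons cover 8.0% of the HOXD1 exon length in GENCODE v29, had 112 and 104 CPM in scramble and 79.1 and 78.1 CPM in shFTO, 1.37-fold lower (1.31 to 1.43). HAGLROS had 9 and 14 reads in scramble and 14 and 8 in shFTO, 1.19-fold lower with an interval that includes 1 (0.632 to 2.23). HOXD-AS2 had 4 and 5 reads in scramble and 8 and 14 in shFTO, a ratio of 2.15 whose interval (0.954 to 5.32) includes 1. Strand was not given for the counting, so reads of HOXD1 or HOXD3 that overlap HAGLR cannot be assigned to a strand.

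In the HOXC cluster on chromosome 12 all 9 members had more reads in shFTO than in scramble, and 6 of them, HOXC4, HOXC5, HOXC6, HOXC10, HOXC11 and HOXC12, had no scramble read. HOXC9, a thoracic-level gene and the strongest of the cluster, had 35 and 24 reads (1.85 and 1.24 CPM) in scramble and 146 and 162 reads (6.82 and 7.39 CPM) in shFTO. It was 4.60-fold higher (3.47 to 6.19), with the runs of the groups well apart. HOXC13, the most 5′ gene and a regulator of hair and nail keratins, had 0 and 5 reads in scramble and 46 and 47 in shFTO, 16.4-fold higher (6.78 to 51.7). All of its control reads came from scramble run 2, and against that run alone the value was 8.25-fold (3.41 to 26).

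HOXC5 had 18 and 13 reads in shFTO and was at least 9.11-fold higher, taking 3 reads in the 2 scramble runs together as the floor. HOXC6, a trunk-level gene, had 15 and 12 reads in shFTO and was at least 7.93-fold higher on the same basis. Only 9 of 14925 genes with at least 20 reads (0.0603%) had no scramble read, and HOXC5 and HOXC6 are 2 of these 9. Such genes reach the minimum of 20 reads through the shFTO runs alone, so this share is in part set by the minimum. HOXC8 had 3 and 4 reads in scramble and 33 and 14 in shFTO, 5.92-fold higher (2.66 to 15.5). Its shFTO runs were unequal, and without shFTO run 1 it was 3.49-fold higher (1.32 to 10.2).

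The other 4 HOXC members stayed at traces in the knockdown. HOXC4, which shares its RefSeq start with HOXC5, had 4 and 6 reads there, HOXC10 had 3 and 5, HOXC12 had 2 in each run and HOXC11 had 1 in each run. In GENCODE v29 exons of HOXC6 cover 17.8% of HOXC4, so reads of the long HOXC4 to HOXC6 transcripts may have been dropped or split. The cluster sum was 2.01 and 1.71 CPM in scramble and 12.5 and 11.9 CPM in shFTO, 6.58-fold higher (5.13 to 8.55). With HOXC9 left out it was 16.3-fold higher (9.15 to 32.0), from 12 scramble and 222 shFTO reads. Antisense genes HOXC13-AS and HOXC-AS1 also had more reads in shFTO. HOXC13-AS, whose exons overlap HOXC13, had 1 and 0 reads in scramble and 11 and 13 in shFTO, a ratio of 21.2 (3.45 to 870), and HOXC-AS1 had 0 and 2 against 4 and 10 reads. HOTAIR, the long noncoding RNA between HOXC11 and HOXC12, had no scramble read and 2 and 1 reads in shFTO.

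In the HOXA cluster on chromosome 7 HOXA3 and HOXA5 were higher in shFTO by less than 2-fold and HOXA13 stood far apart. HOXA13, the most 5′ gene and a hindgut and distal limb regulator, had 1 read in each scramble run (0.0529 and 0.0518 CPM) and 80 in each shFTO run (3.74 and 3.65 CPM). The ratio was 70.5 with a wide counting interval of 19.2 to 587, and only 4 of 14925 genes had a higher ratio. HOTTIP, the noncoding RNA transcribed away from HOXA13, had 2 reads in shFTO run 2 and none elsewhere. HOXA10 went from 1 and 2 reads to 4 and 6, and HOXA11 from 1 and 1 to 6 and 2. HOXA9, which is often active in blood progenitors, had no read in any run.

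HOXA3, which patterns the pharyngeal arches, had 178 and 182 reads in scramble and 328 and 336 in shFTO, or 9.42 and 9.43 CPM against 15.3 CPM in each run. It was 1.63-fold higher (1.43 to 1.85). HOXA5, known for its roles in lung and gut, had 105 and 107 reads in scramble and 193 and 195 in shFTO, 1.61-fold higher (1.36 to 1.92). HOXA4, which lies between them, had 2.12 and 1.81 CPM in scramble and 2.43 and 2.05 CPM in shFTO. These HOXA4 runs overlapped, and the ratio of 1.14 had an interval that includes 1 (0.835 to 1.56). HOXA6 had 7 and 11 reads against 11 and 13, a ratio of 1.18 (0.612 to 2.30), with overlapping runs. HOXA2 had 3 and 5 against 6 and 4 reads. HOXA7 had 4 and 5 reads in scramble and 0 and 1 in shFTO, unlike HOXA5 and HOXA3, and 62.5% of its exon length is covered by antisense HOXA-AS3. HOXA-AS2 was at 5.51 and 5.08 CPM in scramble and 6.08 and 6.43 in shFTO, a ratio of 1.18 (0.982 to 1.43). The sum over the 10 members was 18.0 and 18.1 CPM in scramble and 31.8 and 31.1 CPM in shFTO, 1.74-fold higher (1.59 to 1.91).

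HOXB, on chromosome 17, was nearly without reads in both groups. Of its 10 members 7 had none in any run, HOXB1 had 1 read in shFTO run 1, HOXB13 had 1 in scramble run 2, and HOXB7 had 1 and 4 reads in scramble and 1 and 3 in shFTO. A count of 0 allows up to 3 reads, or 0.0785 CPM over the scramble runs and 0.0692 CPM over the shFTO runs. The antisense genes HOXB-AS1, HOXB-AS2, HOXB-AS3 and HOXB-AS4 also had no read. A difference of the HOXB cluster was not detectable at this depth.

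**Figure D3:**
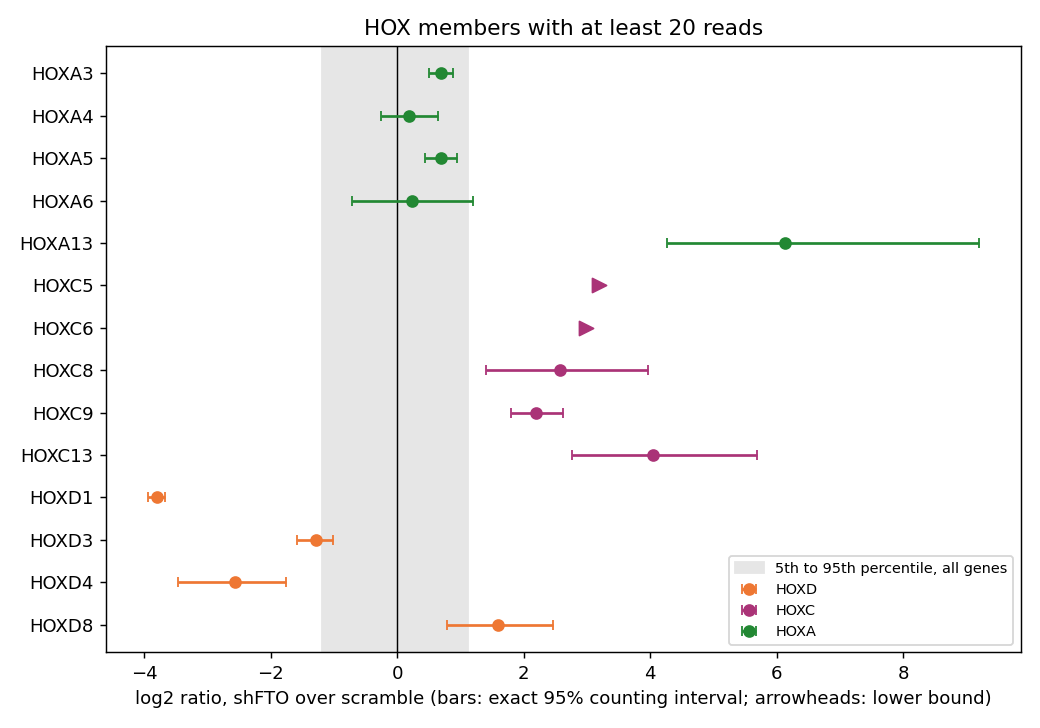
Log2 ratio of shFTO over scramble for the 14 members with at least 20 reads, with bars for the exact 95% counting interval, arrowheads for lower bounds and grey for the 5th to 95th percentile of all genes (-1.18 to 1.12). The points of HOXA13, all 5 HOXC members shown and HOXD8 lie to the right of the band and those of HOXD1, HOXD3 and HOXD4 to the left, whereas HOXA3 to HOXA6 lie inside.

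Reads were also summed by position along each cluster. In HOXD, paralogs 1 to 3 summed to 6219 scramble and 627 shFTO reads, 11.3-fold lower (10.4 to 12.2), paralogs 4 to 8 to 95 and 73 reads, 1.48-fold lower (1.08 to 2.03), and paralogs 9 to 13 to 2 and 10 reads. The sum over paralogs 4 to 8 joins HOXD4, which was lower, with HOXD8, which was higher. In HOXA, the listed paralogs up to 3 were 1.61-fold higher (1.42 to 1.84) and paralogs 4 to 8 were 1.43-fold higher (1.24 to 1.65). HOXA paralogs 9 to 13 went from 7 to 178 reads, 22.4-fold higher (10.7 to 56.6), of which HOXA13 alone had 160. In HOXC, which has no paralogs below 4, paralogs 4 to 8 were 14.5-fold higher (6.81 to 36.8) and paralogs 9 to 13 were 5.72-fold higher (4.38 to 7.56), and these intervals overlap. These sums each rest on few genes.

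Paralogs that share a number went opposite ways in some groups and the same way in others. In paralog group 3 HOXA3 was 1.63-fold higher and HOXD3 2.45-fold lower, so that the group's reads went only from 680 to 812. In group 4 HOXD4 was 5.90-fold lower, HOXA4 differed by less than its counting interval and HOXC4 appeared at 10 reads. In group 5 HOXA5 was 1.61-fold and HOXC5 at least 9.11-fold higher, and in group 8 HOXC8 was 5.92-fold and HOXD8 3.01-fold higher. In group 6 HOXC6 was at least 7.93-fold higher, while the interval of HOXA6 includes 1. In group 13 HOXA13 and HOXC13 were both higher, while HOXB13 had 1 read in all and HOXD13 had 1 in each shFTO run. In group 9 HOXC9 held 308 of 316 shFTO reads, with HOXD9 holding the other 8.

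Per length, as RPKM (reads per kilobase of exon per 1000000 reads, exon lengths from GENCODE v29), HOXD1 led in scramble at 78.2 (exact Poisson interval 76.2 to 80.2). HOXA5 followed at 3.25 (2.83 to 3.72), then HOXD3 at 2.36 (2.11 to 2.63) and HOXA3 at 2.19 (1.97 to 2.43), whose intervals overlap. HOXD4 at 1.39 (1.10 to 1.74), HOXA4 at 1.12 (0.884 to 1.41) and HOXC9 at 0.920 (0.700 to 1.19) each overlapped the next. In shFTO HOXD1 at 5.6 (5.11 to 6.12) and HOXA5 at 5.25 (4.74 to 5.79) were not separated by counting error, and HOXC9 at 4.23 (3.77 to 4.73) and HOXA3 at 3.56 (3.29 to 3.84) overlapped as well. HOXA4 at 1.28 (1.04 to 1.56) came next, and HOXD3 at 0.963 (0.814 to 1.13), HOXC13 at 0.886 (0.715 to 1.09) and HOXA13 at 0.726 (0.618 to 0.848) formed a group of neighbours. The control cells were thus dominated by 1 HOX transcript, and the knockdown cells had 4 between 3.56 and 5.6 RPKM.

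Cofactors and chromatin regulators of HOX genes had ratios closer to 1 than most members with at least 20 reads. Read depth was not matched, and 7 of the 14 members reached 20 reads only through the shFTO runs. The contrast is thus in part set by the minimum. With at least 100 reads, 2 of 7 members were 2-fold higher and 2 lower. Among TALE partners none of 6 with enough reads was 2-fold different and the median log2 ratio was 0.01, as over all 14925 genes (0.01). PBX2, the most read of them, went from 164 and 166 CPM to 100 and 96.5 CPM, 1.67-fold lower (1.61 to 1.74), and PKNOX1 was 1.55-fold higher (1.35 to 1.79). PBX4 had no read. Of 11 matched PRC2 genes, which place the repressive H3K27 methyl mark, none was 2-fold different (median 0.09), with edgeR calling 6 higher and 1 lower. The core subunit EED was 1.61-fold higher (1.51 to 1.71), the methyltransferase EZH2 1.06-fold higher (1.01 to 1.11) and PHF1 1.45-fold lower (1.34 to 1.56). Of 17 PRC1 genes 3 were called higher and 5 lower (median 0.00), with CBX6 1.69-fold higher (1.55 to 1.84) and RYBP 1.61-fold lower (1.5 to 1.72). Of 16 trithorax-type and H3K27 demethylase genes 9 were called higher and 5 lower (median 0.26), again none by 2-fold. The H3K36 methyltransferase ASH1L was 1.67-fold higher (1.56 to 1.78), and SETD1B 1.68-fold higher (1.54 to 1.83). By edgeR 33.2% of all tested genes were called higher and 33.4% lower.

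Some genes of retinoic acid supply and breakdown showed larger differences. Of 18 listed genes 12 had at least 20 reads, with 4 higher by 2-fold or more and 1 lower (median 0.24). Over all genes with at least 20 reads 6.04% were higher and 6.67% lower by 2-fold, and among those under 1000 reads 11.7% and 10.4%. CYP26B1, which breaks retinoic acid down, had 5 and 4 reads in scramble and 137 and 129 in shFTO, 26.1-fold higher (13.5 to 57.6). ALDH1A1, which makes retinoic acid from retinal, went from 793 and 773 CPM to 3368 and 3377 CPM, 4.31-fold higher (4.25 to 4.36). ALDH1A2, another enzyme of that step, had 6 and 2 against 13 and 14 reads, 2.98-fold higher (1.31 to 7.58). CYP26B1 and ALDH1A2 reached 20 reads only through the shFTO runs, so the count of 4 higher genes is in part set by the minimum. STRA6, the retinol uptake receptor, had 7 and 8 reads in scramble and 3 and 2 in shFTO. It was 3.40-fold lower (1.18 to 12.0) at exactly the minimum of 20 reads. The reductase DHRS3, which turns retinal back into retinol, was 1.61-fold lower (1.53 to 1.70).

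Other homeobox genes of the same class showed no 2-fold difference among 6 with enough reads (median 0.22), and the HOX regulators CDX1, CDX2 and CDX4 had at most 3 reads in any run. HHEX, a liver and foregut homeobox gene, was 1.55-fold lower (1.47 to 1.63), and DLX4 was 1.72-fold higher (1.30 to 2.28). Genes that flank the clusters mostly differed by less than 2-fold. The exceptions were CBX5, which encodes heterochromatin protein HP1 alpha and lies beyond the 3′ end of HOXC, 2.80-fold higher (2.64 to 2.96), and CHN1, further along chromosome 2 from HOXD, from 25 and 36 to 214 and 248 reads and 6.68-fold higher (5.10 to 8.87). MTX2, at the 3′ side of HOXD, was 1.12-fold lower (1.07 to 1.18), and LNPK, on the 5′ side, 1.76-fold lower (1.65 to 1.88). SKAP2, at the 3′ side of HOXA, was 1.62-fold higher (1.52 to 1.73). None of 6 HOXB neighbours with enough reads was 2-fold different (median 0.07).

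**Figure D4:**
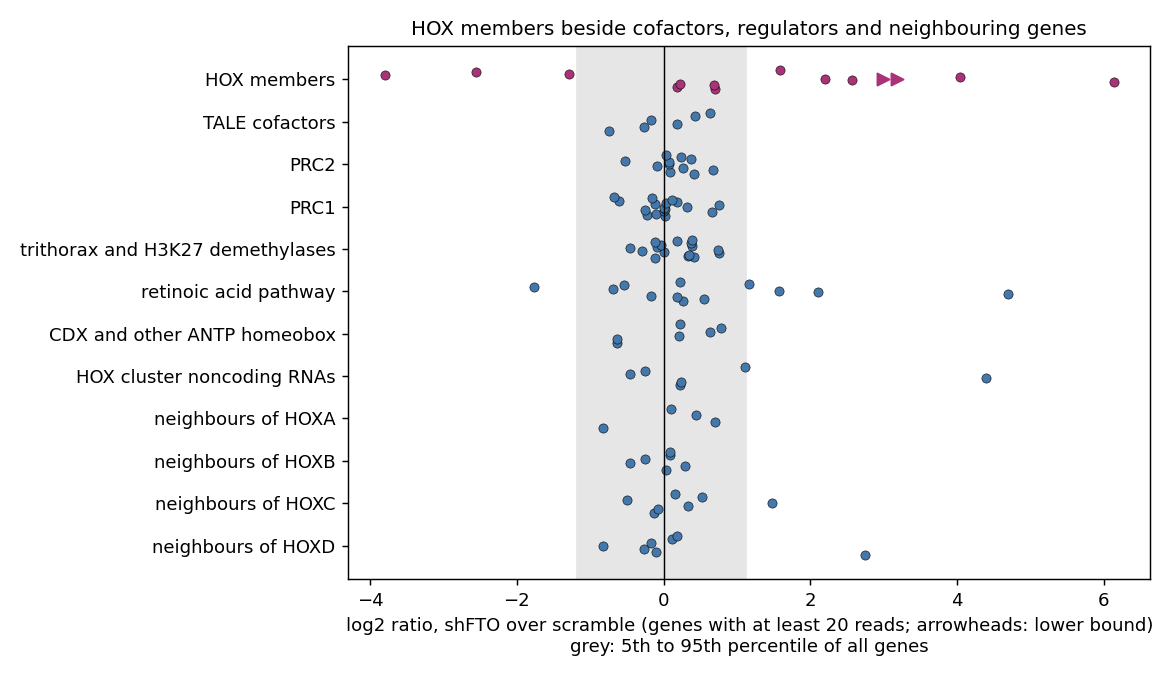
Log2 ratio of shFTO over scramble for genes with at least 20 reads, 1 point a gene, for the HOX members and for the lists of cofactors, chromatin regulators, retinoic acid genes, other homeobox genes, cluster noncoding RNAs and neighbours, with grey for the 5th to 95th percentile of all genes. TALE, PRC1, PRC2 and trithorax genes all lie inside the band, while 10 of 14 HOX members lie outside it. The lists are not matched for read depth. Of the 14 members 7 reached 20 reads only through the shFTO runs and 1 only through the scramble runs.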

How the data were processed

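The authors deposited raw read counts per Ensembl gene. TopHat2 2.1.1, HTSeq 0.6.0 and build hg19 are named per the submitters' processing notes. The sources used here do not give the annotation release or strand setting. Groups came from sample titles.

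Symbols were matched by Ensembl identifier (51226 of 62893 genes, and 191 of 199 list places). HOX sums cover the listed members only. GENCODE v29 (GRCh38, another build than the authors') gave exon lengths and overlaps, and RefSeq (GRCh38.p14) the promoters, with entries for 20 of 38 members. Members and lists were chosen with earlier results of these data known.

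Folds are ratios of pooled CPM (TMM) with exact 95% Clopper-Pearson intervals, given from 20 reads over the 4 tables, or bounds against 3 reads. edgeR 4.0.16 (R 4.3.3; quasi-likelihood, filterByExpr, two-sided, adjusted p under 0.05, 2 residual degrees of freedom) was checked on simulated data. Since runs are 1 sample, no p of a gene is given. Named were all members, FTO, and from each list genes among the 4 with the largest ratio each way. EZH2, PBX4, HOTAIR, HOTTIP, HOXC-AS1, the HOXB antisense and CDX genes and the cell type markers fall outside that rule. Alternatives were other scalings, filters, fold thresholds, DESeq2 1.42.0, limma-voom (limma 3.58.1), a replicate block and leaving out each run. Some list genes are not reported here. Leaving out each cluster's top gene, or members overlapped over 50% of their exons, was added after seeing the data.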

Additional observations from a re-analysis of the deposited data

How the results depend on the processing

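Plain library size moved the median log2 ratio of all genes from 0.01 to 0.18, and with it the HOXA sum from 0.80 to 0.97, the HOXD sum from -3.34 to -3.17 and HOXD1 from -3.80 to -3.64. Leaving out the top member, chosen after seeing the data, moved the HOXC sum from 2.72 to 4.03 (without HOXC9) and the HOXD sum to -1.03 (without HOXD1). Without HOXD1 the shares of HOX reads in scramble became 58.2% for HOXA, 6.0% for HOXC and 35.2% for HOXD, and in shFTO 64.0%, 24.9% and 10.9%. The 7 members at least 2-fold higher and 3 lower became 12 and 4 of 28 with no filter beyond 1 read. Without shFTO run 1 they became 5 and 3 of 12, and the same without shFTO run 2. With at least 100 reads they became 2 and 2 of 7, so the excess of higher members depends on the filter. There the 9 edgeR calls of higher members became 4 and the 3 of lower members became 2, as fewer genes are tested. HOXA6 turned from 0.23 to -0.05 without scramble run 1, and its values with each run left out reached 0.58. Of 83 ratios of 12 members under other settings 82 stayed inside their counting interval, HOXD1 with plain library size being the exception, and HOXC13 has no ratio without scramble run 2. With each run left out the HOXA sum ranged from 0.79 to 0.81, the HOXC sum from 2.60 to 2.83 and the HOXD sum from -3.37 to -3.30. The replicate numbers did not pair the runs (correlation of deviations from the group mean 0.016). With 2 runs a group this is 1 value, the same for each number by construction. With the replicate block edgeR called 9 members higher and 3 lower, as without it. DESeq2 and limma-voom gave 9 and 3 as well. Depth limits the 24 members under 20 reads.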
